A study of Mus musculus with 6 samples.

Results

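Major histocompatibility complex (MHC) class II molecules display peptides from engulfed proteins to CD4+ T cells. Expression of 8 mouse genes of this pathway was followed in injured tendon. They are the classical chain genes *H2-Aa*, *H2-Ab1* and *H2-Eb1*, the invariant chain gene *Cd74*, the peptide-exchange genes *H2-DMa*, *H2-DMb1* and *H2-DMb2*, and the transactivator gene *Ciita*. The genes were chosen by name, and all 8 were found among the 18099 genes of the table. None of the 8 differed between the genotypes beyond the spread between mice. The clearest pattern was that *H2-Aa*, *H2-Ab1*, *H2-Eb1* and *Cd74* moved together from mouse to mouse. *Ciita* and the H2-DM genes, which had fewer reads and thus more counting error, did not visibly follow them.

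RNA sequencing covered transected Achilles tendon of neonatal mice, collected 7 days after injury from 3 control mice and 3 knockout mice, with 1 library per mouse. Control mice were *Ampkα1fl/fl* animals, in which both alleles of the AMPKα1 gene (*Prkaa1*) are floxed and no Cre is present. Knockout mice were *LysM-Cre; Ampkα1fl/fl* animals, in which Cre recombinase is made from the lysozyme M locus (*Lyz2*), which is active in macrophages, monocytes and neutrophils. All mice thus carried the floxed alleles and the injury. By genotype the groups differed in Cre, and they also differed in *Lyz2* transcript, as given below. The RNA came from whole tissue, so class II transcripts of B cells and of dendritic cells that Cre did not reach were measured together with those of macrophages. Control libraries held between 18170067 and 18858369 reads and knockout libraries between 18076805 and 19479887. *Prkaa1* had 740, 688 and 690 reads in the controls and 626, 751 and 652 in the knockouts (log2 fold change −0.08, edgeR adjusted p = 0.744), and this count covers the whole gene rather than the floxed segment, so it does not check the deletion. *Lyz2* had between 7372 and 7778 reads in the controls and 9, 15 and 8 in the knockouts (log2 fold change −9.46, edgeR adjusted p = 3.413e-06), which sets the 2 groups of libraries apart as their labels do. The knockouts thus lacked nearly all *Lyz2* transcript. In this design that loss cannot be told apart from the loss of AMPKα1.

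A class II molecule is a pair of an α and a β chain. The invariant chain holds newly made pairs together, blocks their groove and guides them to endosomes, where proteases cut it down to a short remnant. H2-DM, itself a pair of an α and a β chain, then exchanges this remnant for a peptide. Transcription of the whole set depends on CIITA, which binds no DNA itself and is recruited to promoters by the RFX complex on the X box and by NF-Y on the Y box. Dendritic cells and B cells make class II molecules constantly, whereas macrophages raise them mainly in response to interferon gamma.

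The promoter stretches of 4 of these genes are shown because they hold a match to the letters of the Y box, and in some also of the X box. Each is the 150 bases before the annotated start, 5′ to 3′ in the direction of transcription, from RefSeq on GRCm38.p6. The start of *H2-DMb2* is one within its annotated span. Capitals mark a match to the Y box letters TGATTGG, or a match to the longer X box, in which the third, the fourth and the seventh letter were left free.
H2-Aa, chr17:34287824-34287973, minus strand: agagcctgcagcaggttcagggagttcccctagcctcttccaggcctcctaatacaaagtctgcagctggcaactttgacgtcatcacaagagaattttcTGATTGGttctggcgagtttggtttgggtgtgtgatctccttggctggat
H2-Eb1, chr17:34305717-34305866, plus strand: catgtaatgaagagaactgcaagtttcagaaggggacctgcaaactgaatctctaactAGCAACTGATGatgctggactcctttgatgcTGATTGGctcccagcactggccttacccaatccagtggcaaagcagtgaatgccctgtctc
H2-DMb1, chr17:34153041-34153190, plus strand: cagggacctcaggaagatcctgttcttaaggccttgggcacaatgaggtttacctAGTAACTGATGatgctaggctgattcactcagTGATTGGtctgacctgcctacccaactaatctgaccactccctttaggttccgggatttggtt
H2-DMb2, chr17:34145099-34145248, plus strand: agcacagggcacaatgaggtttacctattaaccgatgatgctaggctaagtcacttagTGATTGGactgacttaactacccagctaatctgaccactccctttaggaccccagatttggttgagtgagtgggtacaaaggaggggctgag

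The Y box began 50 bases before the start of *H2-Aa*, 61 before that of *H2-Eb1*, 63 before that of *H2-DMb1* and 92 before that of *H2-DMb2*. The X box letters were found upstream of the Y box in *H2-Eb1*, at 92 bases before the start, and in *H2-DMb1*, at 95. Windows from 250 bases before to 50 bases after the start were searched on both strands, and 5 of the 8 genes had an entry. Of these 5, 4 held the Y box and 2 held the X box, and the 2 windows of *H2-DMa* held neither. Among all 32851 windows of the same length, 7.82% held the Y box letters, 0.968% the X box letters and 0.0548% both. A match is a description of the letters and not evidence of binding.

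On GRCm38.p6 as annotated by RefSeq, 6 of the genes lie within a short stretch of chromosome 17. *H2-DMa* spans 34119693 to 34139101, *H2-DMb2* 34143229 to 34151553, *H2-DMb1* 34153191 to 34160229, *H2-Ab1* 34263227 to 34269418, *H2-Aa* 34282744 to 34287823 and *H2-Eb1* 34305867 to 34316674. *Ciita* lies apart from them, on chromosome 16 at 10480014 to 10531064. The 6 genes of chromosome 17 are also listed in the deposited table on further rows as copies of the same transcript, and at least 1 copy row of each held the same reads as the first (within 0.005 reads). Their values here are sums over these rows. *H2-DMb1* and *H2-DMb2* are close relatives, and 12.9% of the 100-base windows of the *H2-DMb2* transcript (179 of 1384) occur unchanged in *H2-DMb1*, so that the split of reads between them is less certain than their sum.

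The classical chains were all present at a moderate level and lay lower on average in the knockouts, but none passed the test. *H2-Aa*, the α chain of the I-A molecule, had 44.5, 40.9 and 29.2 CPM (reads scaled to library size with TMM factors) in control mice 1, 2 and 3 and 38.3, 24.7 and 31.8 in knockout mice 1, 2 and 3. The 2 highest values were those of controls 1 and 2, while control 3 lay below knockouts 1 and 3, so the groups overlapped. The means were 38.2 ± 7.96 and 31.6 ± 6.84 CPM (SD, n = 3 each). The log2 fold change of knockout over control was −0.27 (SE 0.20, 95% interval −0.76 to 0.21), with an edgeR adjusted p of 0.602 and a two-sided exact permutation p of 0.4. With 3 mice against 3, that permutation test cannot give a p below 0.1.

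*H2-Ab1*, the β chain of I-A, followed its partner. It had 44.1, 38.1 and 26.4 CPM in the controls and 34.7, 25.6 and 29.7 in the knockouts, or 36.2 ± 9.03 against 30.0 ± 4.58 (SD, n = 3 each). As for *H2-Aa*, controls 1 and 2 were highest and control 3 lay inside the knockout range. The log2 fold change was −0.27 (SE 0.20, 95% interval −0.74 to 0.20, edgeR adjusted p = 0.597, exact permutation p = 0.4).

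*H2-Eb1*, the β chain of the I-E molecule, had 36.7, 32.7 and 25.2 CPM in the controls and 29.5, 20.4 and 27.6 in the knockouts, or 31.5 ± 5.87 against 25.8 ± 4.80 (SD, n = 3 each). Control 3 again fell below knockouts 1 and 3, and knockout 2 was the lowest library, as it was for both I-A chains. The log2 fold change was −0.29 (SE 0.18, 95% interval −0.72 to 0.14, edgeR adjusted p = 0.526, exact permutation p = 0.3). Its α partner, *H2-Ea*, was not analysed here.

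*Cd74*, the invariant chain, was the most abundant of the 8 genes. It had 101.3, 92.8 and 68.9 CPM in the controls and 82.1, 66.4 and 78.3 in the knockouts, or 87.7 ± 16.8 against 75.6 ± 8.19 (SD, n = 3 each). The library order was close to that of the classical chains, with controls 1 and 2 highest and knockout 2 lowest. The log2 fold change was −0.21 (SE 0.15, 95% interval −0.57 to 0.14, edgeR adjusted p = 0.580, exact permutation p = 0.4). *Cd74* is made as 2 transcripts, of 1410 and 1224 bases in GENCODE M21, and the longer one adds a domain that inhibits cysteine proteases. The longer form took 22.99%, 22.67% and 22.94% of *Cd74* reads in the controls and 21.8%, 23.6% and 22.3% in the knockouts. These shares overlapped (22.9 ± 0.171% and 22.6 ± 0.935%, SD, n = 3 each, exact permutation p = 0.6).

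**Figure D1:**
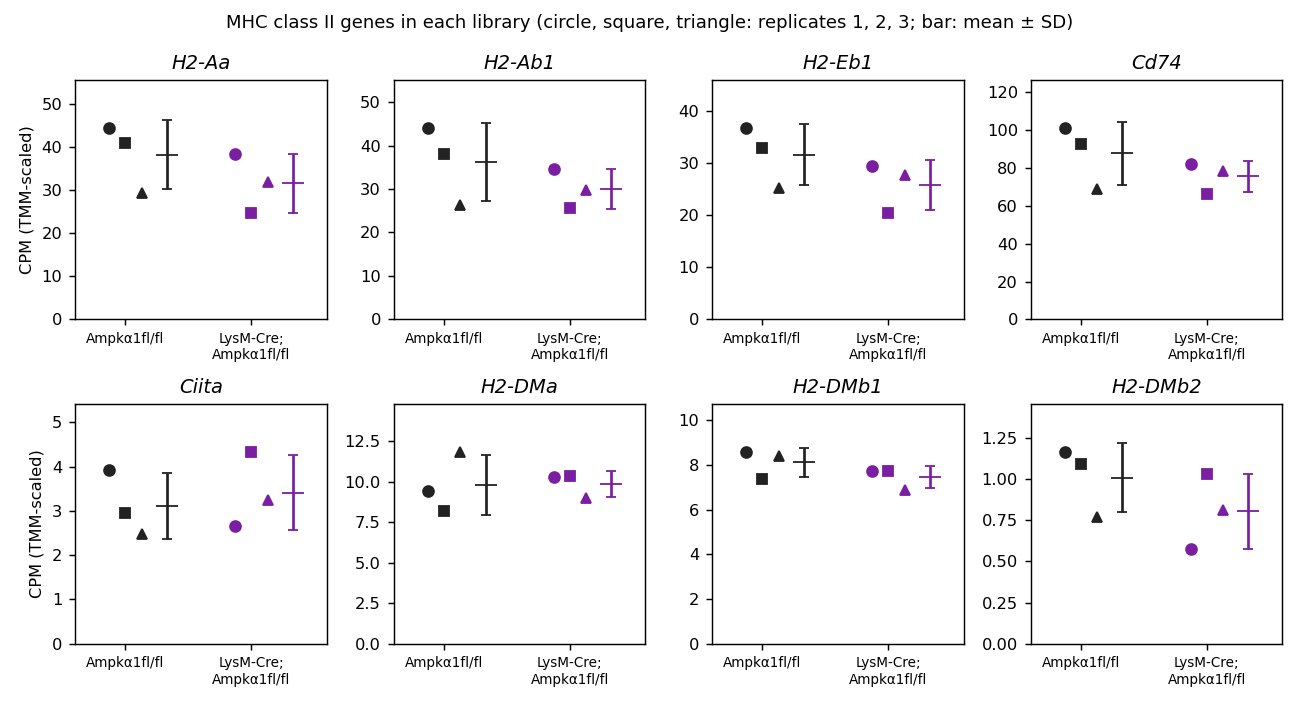
CPM of each of the 8 class II genes in every library, with 1 point per mouse, controls (*Ampkα1fl/fl*) and knockouts (*LysM-Cre; Ampkα1fl/fl*) side by side, and the group mean and SD. The groups overlap in all 8 panels, for example 29.2 to 44.5 against 24.7 to 38.3 CPM for *H2-Aa*.

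The H2-DM genes gave no common direction. *H2-DMa*, the α chain, had 9.42, 8.20 and 11.8 CPM in the controls and 10.3, 10.4 and 8.97 in the knockouts. Control 3, the lowest control for the classical chains, was here the highest library of all. The log2 fold change was 0.0086 (SE 0.16, 95% interval −0.36 to 0.38, edgeR adjusted p = 0.989, exact permutation p = 1.0). *H2-DMb1*, a β chain, was the steadiest of the set, with 8.57, 7.38 and 8.39 CPM in the controls and 7.72, 7.73 and 6.86 in the knockouts. Its log2 fold change was −0.12 (SE 0.12, 95% interval −0.41 to 0.16, edgeR adjusted p = 0.693, exact permutation p = 0.3).

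*H2-DMb2*, the other β chain, was read only 22, 20 and 14 times in the controls and 11, 19 and 15 times in the knockouts. At this depth its interval was wide, with a log2 fold change of −0.33 (SE 0.33, 95% interval −1.11 to 0.46, edgeR adjusted p = 0.713, exact permutation p = 0.3). The summed β chains stood at 1.63, 1.68 and 1.19 times *H2-DMa* in the controls, on the length-scaled TPM values, and at 1.29, 1.35 and 1.26 times in the knockouts. Control 3 lay below every knockout in this ratio and controls 1 and 2 above every knockout (exact permutation p = 0.4).

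*Ciita*, the transactivator, was read 74, 54 and 45 times in the controls and 51, 80 and 60 times in the knockouts, which is 3.92, 2.95 and 2.47 against 2.66, 4.33 and 3.24 CPM. Knockout 2, which had the lowest *H2-Aa*, *H2-Ab1*, *H2-Eb1* and *Cd74*, had the highest *Ciita*. The means were 3.11 ± 0.737 and 3.41 ± 0.846 CPM (SD, n = 3 each). The log2 fold change was 0.13 (SE 0.26, 95% interval −0.49 to 0.75, edgeR adjusted p = 0.873, exact permutation p = 0.6). *Ciita* is transcribed from several promoters used by different cell types, and its reads were spread over 6 listed transcripts, none of which had reads in all 6 libraries, so no use of single promoters could be read from these counts.

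Across the set, 0 of 8 genes passed an edgeR adjusted p of 0.05, while 0.898% of the 14261 genes tested did (128 genes, 0.33% of those tested being higher and 0.568% lower in the knockouts). At an unadjusted p under 0.05 the count was also 0 of 8, against 14.5% of all genes, and DESeq2 likewise called 0 of 8, against 4.82% of all genes. Groups did not overlap for 0 of 8, against 20.4% of all genes. The direction was lower in the knockouts for 6 genes and higher for 2, with a median log2 fold change of −0.24 beside −0.002 over all genes tested. For 7 of the 8 genes the 95% interval lay inside a 2-fold change in either direction, and the exception was *H2-DMb2*. A moderate change of class II transcripts in either direction is therefore not shown and not excluded by these 6 mice. In whole tissue, fewer cells of a type and less RNA per cell cannot be told apart.

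**Figure D2:**
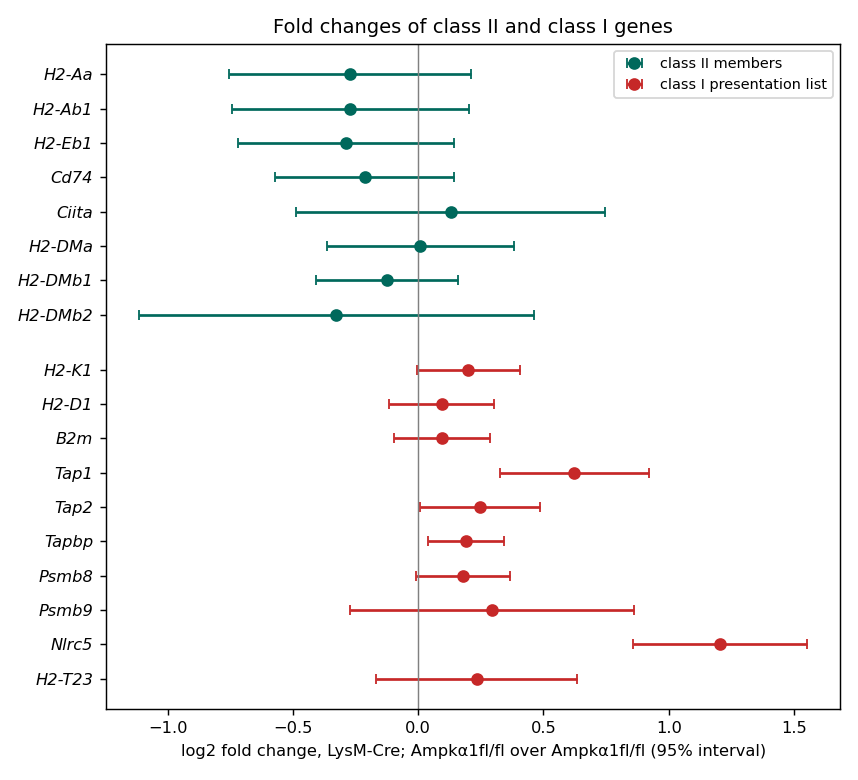
Log2 fold change of knockout over control for the class II genes and the class I presentation genes, with points for the edgeR estimate, lines for the 95% interval and a vertical line at 0. All 8 class II intervals cross 0, and *Nlrc5* at 1.21 stands well to the right of the other class I genes.

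On the TPM scale, which allows genes to be compared per length, the order was *Cd74*, *H2-Aa*, *H2-Ab1*, *H2-Eb1*, *H2-DMb1*, *H2-DMa*, *H2-DMb2* and *Ciita* in 6 of 6 libraries. *Cd74* stood at 185.5 ± 34.3 TPM in the controls and 161.4 ± 14.2 in the knockouts (SD, n = 3 each). *H2-Aa* stood at 94.1 ± 18.9 and 78.5 ± 15.8 TPM, and *H2-Ab1* close below it at 82.6 ± 20.2 and 69.0 ± 9.58. These 2 partners of I-A differed by less than their spread between mice. *H2-Eb1* stood at 46.5 ± 8.59 and 38.2 ± 6.26 TPM, below the SD ranges of both I-A chains. The H2-DM chains formed a lower tier, with *H2-DMb1* at 16.8 ± 1.62 and 15.5 ± 1.45 TPM and *H2-DMa* at 12.8 ± 3.04 and 13.1 ± 0.802, a pair whose SD ranges met in the controls. *H2-DMb2* at 1.83 ± 0.372 and 1.48 ± 0.461 TPM and *Ciita* at 1.00 ± 0.225 and 1.04 ± 0.246 were lowest, and the knockout values of this pair lay within their spread.

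The proportions among the chains were held more closely than their levels. *H2-Ab1* over *H2-Aa* in TPM was 0.920, 0.863 and 0.834 in the controls and 0.838, 0.959 and 0.865 in the knockouts. *H2-Eb1* over *H2-Aa* lay between 0.457 and 0.519 in all 6 libraries, although *H2-Aa* itself ranged 1.80-fold from lowest to highest in CPM. *Cd74* over *H2-Aa* lay between 1.84 and 2.31. By contrast *H2-Aa* over *H2-DMa* ran from 4.57 to 9.86, with controls 1 and 2 at the top at 8.98 and 9.86 and control 3 at the bottom. The genotypes overlapped in each of these ratios.

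**Figure D3:**
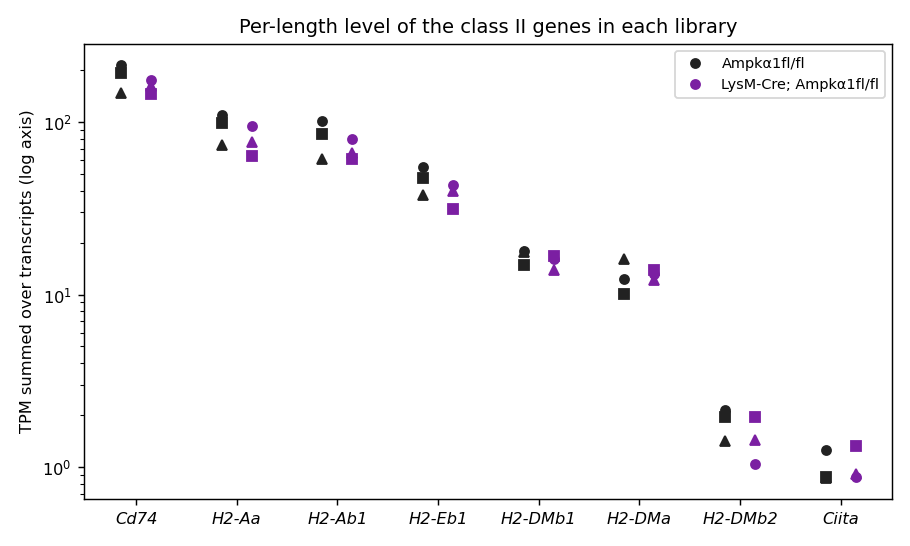
TPM of the 8 class II genes on a log axis, with 1 point per library, coloured by genotype. The order is the same in 6 of 6 libraries, from *Cd74* at 146.6 to 215.8 TPM down to *Ciita* at 0.86 to 1.32.

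Levels were compared across the 6 libraries as edgeR log2 CPM, in which a small count is added before the log. Pearson correlations among *H2-Aa*, *H2-Ab1*, *H2-Eb1* and *Cd74* ran from 0.949 to 0.989. These points share libraries and depth, and the values are a description. The mean centred level of these 4 genes was 0.381, 0.226 and −0.229 in controls 1, 2 and 3 and 0.088, −0.39 and −0.076 in knockouts 1, 2 and 3, on the log2 scale. Controls 1 and 2 were thus the high libraries, and control 3 and knockout 2 the low ones. The correlation of *Ciita* with the 4 genes was between −0.17 and 0.072, that of *H2-DMb1* between 0.112 and 0.197, and that of *H2-DMb2* between 0.142 and 0.372. *H2-DMa* ran the other way, at −0.55 to −0.677. The transcript of the transactivator, with 45 to 80 reads a library and the counting error that goes with them, thus showed no parallel course with the classical chains. Counting error also weighs on *H2-DMa* (150 to 216 reads), *H2-DMb1* (127 to 162) and *H2-DMb2* (11 to 22). A parallel course of *Ciita* or the H2-DM genes could therefore go unseen.

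**Figure D4:**
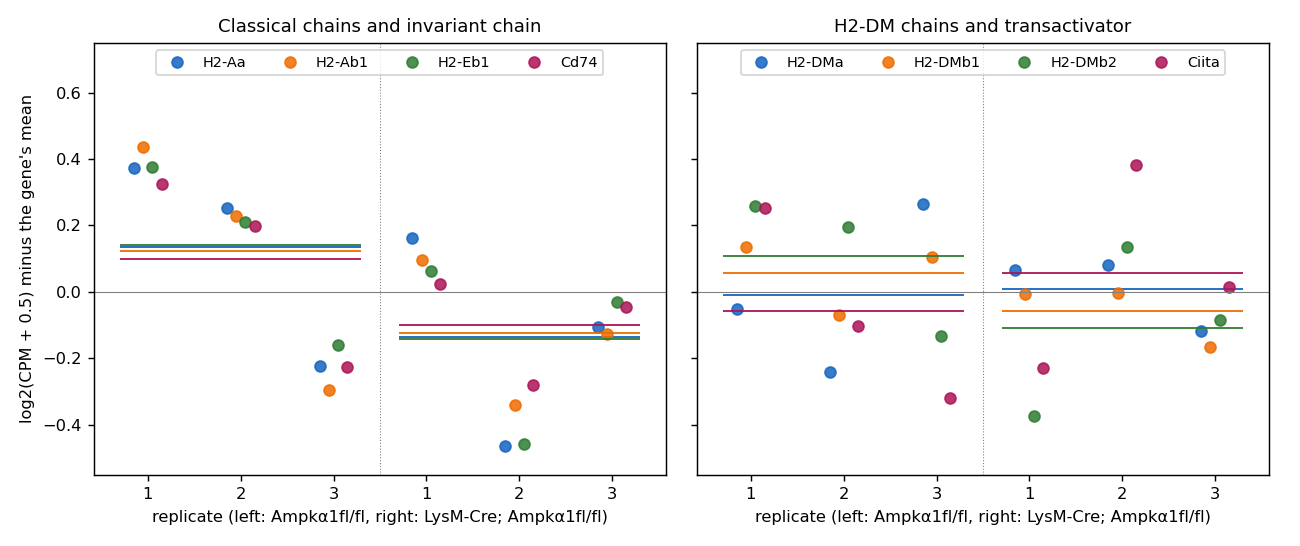
Log2(CPM + 0.5) of each class II gene minus its own mean, by library, with the classical chains and *Cd74* on the left, the H2-DM genes and *Ciita* on the right, and horizontal lines for the group means. The 4 genes on the left move together, and those on the right scatter. On the edgeR log2 CPM scale of the text, the mean of the 4 genes ran from 0.381 in control 1 to −0.39 in knockout 2.

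Of 14257 other genes tested, 23 had a Pearson correlation over 0.95 with the mean of the 4 genes. The 10 most alike were *Rab13* (0.987), *Ephx1* (0.986), *Vps25* (0.984), *Nono* (0.982), *Dph1* (0.981), *Rpl37* (0.978), *Rpl11* (0.977), *Dlgap2* (0.975), *Olfml2b* (0.973) and *Imp3* (0.973). Likeness over 6 libraries is a weak description, and 14 genes had the same rank order as the 4 genes (Spearman rho of 1). How many unrelated genes would reach such values among so many was not tested, so these names show no link to class II. *H2-Ob*, the β chain of the H2-DO molecule that restrains H2-DM in B cells, came at rank 40 with a correlation of 0.933.

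The other class II chains were near the limit of detection. *H2-Ob* was read 17, 14 and 10 times in the controls and 11, 9 and 11 times in the knockouts (log2 fold change −0.42, SE 0.33, edgeR adjusted p = 0.626). *H2-Oa*, its α partner, had at most 7 reads and *H2-Eb2* at most 2 in any library, too few to be tested. The genes around the pathway were taken from lists written by hand. Of 9 genes that process antigen and invariant chain in endosomes, 0 passed the edgeR test in either direction, with a median log2 fold change of 0.12, and DESeq2 called *Ctsd* higher. The largest estimates were those of the proteases *Ctsd* (0.32, edgeR adjusted p = 0.224), *Ctss*, which makes the last cuts in the invariant chain (0.24, edgeR adjusted p = 0.362), and *Ctsl* (0.19, edgeR adjusted p = 0.392).

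Of 7 genes for the factors that recruit CIITA to promoters, 0 passed, with a median log2 fold change of −0.09. The largest estimates were −0.24 for *Rfxank* (edgeR adjusted p = 0.521) and −0.10 for *Rfx5* (edgeR adjusted p = 0.639), which encode RFX subunits, and −0.14 for *Nfyc* (edgeR adjusted p = 0.399), which encodes a subunit of NF-Y. Of 9 tested genes on the route from interferon gamma to *Ciita*, 0 passed in edgeR, with a median log2 fold change of 0.07. *Irf1* was at 0.26 (edgeR adjusted p = 0.261) and *Socs1*, an inhibitor of the route, at −0.24 (edgeR adjusted p = 0.676). *Ifng* itself had at most 2 reads in any library.

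Class I presentation, which shows peptides from inside the cell to CD8+ T cells, was set beside class II because it has its own transactivator. *Nlrc5*, the class I counterpart of *Ciita*, was read 107, 108 and 97 times in the controls and 237, 207 and 285 times in the knockouts. Every knockout lay above every control, and *Nlrc5* rose by a log2 fold change of 1.21 (SE 0.15, edgeR adjusted p = 0.023). With the libraries paired by replicate number as a block, the call was lost (adjusted p = 0.0611). The call was also lost without control 1 (adjusted p = 0.136), control 2 (0.127), control 3 (0.0792) or knockout 1 (0.099), while the log2 fold change stayed between 1.17 and 1.24 in these fits. *Nlrc5* was the 1 gene of 10 on the class I list that passed, and the median log2 fold change of that list was 0.22. All 10 estimates lay above 0, and 4 of the 10 had an unadjusted edgeR p under 0.05, beside 14.5% of all genes. *Tap1*, which carries peptides to class I molecules, was at 0.62 (SE 0.12, edgeR adjusted p = 0.086, called higher by DESeq2) and *Psmb9*, an immunoproteasome subunit, at 0.30 (edgeR adjusted p = 0.640).

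The ratio of *Nlrc5* to *Ciita* in CPM was 1.45, 2.0 and 2.16 in the controls and 4.65, 2.59 and 4.75 in the knockouts. All 3 knockouts lay above all 3 controls, with a log2 difference of 1.06 and the smallest exact permutation p that this design allows, 0.1, or 0.3 after adjustment over the 3 ratios compared. The other 2 ratios overlapped. *H2-K1*, a class I heavy chain, over *H2-Aa* differed by 0.48 on the log2 scale and *B2m*, the class I light chain, over *Cd74* by 0.30 (exact permutation p = 0.3 for each, adjusted 0.3). A difference between class I and class II genes in their change with genotype was not shown by these 3 ratios. The test could not have shown one, as its p cannot fall below 0.1 with these 6 libraries.

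Class II molecules work together with costimulatory proteins. Of 5 such genes tested, 0 passed in edgeR, with a median log2 fold change of −0.56. *Cd86*, which binds CD28 on T cells, was at 11.9 ± 0.810 CPM in the controls and 6.87 ± 1.51 in the knockouts (SD, n = 3 each, log2 fold change −0.79, edgeR adjusted p = 0.107). *Cd274*, which encodes the inhibitory ligand PD-L1, was at 2.08 ± 0.197 and 4.64 ± 1.47 CPM (log2 fold change 1.16, edgeR adjusted p = 0.119). *Cd40* was at −0.60 (edgeR adjusted p = 0.235), and *Pdcd1lg2* was too low to be tested. The groups of *Cd86*, *Cd274*, *Cd40* and *Cd80* did not overlap, as was so for 20.4% of all genes tested. DESeq2 called *Cd86* lower and *Cd274* higher.

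Markers of the cells that carry class II were compared with the same test. Of 10 dendritic cell markers tested, 1 passed. *Clec10a*, a lectin of type 2 dendritic cells and some macrophages, was read 462, 457 and 497 times in the controls and 229, 195 and 152 times in the knockouts, and it fell by 1.32 on the log2 scale (SE 0.14, edgeR adjusted p = 0.0174). With the replicate block its adjusted p was 0.0525, and the call was lost without control 1 (0.0892), control 2 (0.0985), control 3 (0.0577) or knockout 1 (0.0552). *Cd209a* (−1.29, edgeR adjusted p = 0.103) and *Clec9a* (−0.91, edgeR adjusted p = 0.464) gave estimates of the same sign, while the median of the list was −0.05 and *Siglech* was too low to be tested. The summed level of the dendritic list was 61.8 to 65.6 CPM in the controls and 39.0 to 52.5 in the knockouts, and this gap rested on *Clec10a*. Without it, a sum formed after seeing the data, the list was at 37.4, 38.1 and 38.3 CPM in the controls and 37.6, 41.9 and 30.8 in the knockouts, which overlapped. The summed class II genes overlapped as well, at 173.1 to 249.6 and 160.5 to 205.9 CPM.

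Of 12 macrophage markers, 0 passed in edgeR, with a median log2 fold change of −0.25. At an unadjusted edgeR p under 0.05, 6 were lower and 1 was higher, beside 14.5% of all genes in either direction. DESeq2 called 3 lower (*Adgre1*, *Csf1r* and *Mrc1*), beside 4.82% of all genes in either direction. *Mrc1* was at −0.83 (edgeR adjusted p = 0.115), *Csf1r* at −0.64 (edgeR adjusted p = 0.0933), *Ccr2* at −0.55 (edgeR adjusted p = 0.262) and *Adgre1* at −0.52 (edgeR adjusted p = 0.0508). Groups did not overlap for *Adgre1*, *Csf1r*, *Mrc1*, *C1qa* and *C1qb*, all lower, and for *Mertk*, which was higher, beside 20.4% of all genes tested. Estimates were below 0 for 9 of the 12 markers and above 0 for 3, *Cd68* (0.25), *Mertk* (0.21) and *Fcgr1* (0.11). The summed level of the 12 markers was 1180 to 1232 CPM in the controls and 780.5 to 1005 in the knockouts. Set against *Csf1r*, *H2-Aa* was at 0.186, 0.167 and 0.109 in the controls and 0.224, 0.134 and 0.248 in the knockouts, and set against the pan-leukocyte gene *Ptprc* at 1.26, 1.07 and 0.849 and 1.22, 0.666 and 1.20. Both ratios overlapped between the genotypes, with log2 differences of 0.38 and −0.07 (exact permutation p = 0.4 and 0.8). *H2-Aa* over *Adgre1* overlapped as well, with a log2 difference of 0.25 (exact permutation p = 0.5). As the p of this test cannot fall below 0.1 with these 6 libraries, it could not show a difference in *H2-Aa* per unit of a marker.

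B cell transcripts were scarce, and 5 of 8 markers were too low to be tested, *Cd79a*, *Ms4a1*, *Pax5* and *Fcrla* among them. Of the 3 tested, 0 passed (*Cd79b* −0.80, *Cd22* 0.29 and *Blk* −0.25), and the summed list was at 5.87 to 6.45 CPM in the controls and 4.22 to 5.95 in the knockouts. Of 5 tested T cell markers 0 passed (*Cd4* −0.52, *Zap70* 0.43 and *Cd247* −0.16), and *Cd3d*, *Cd3e* and *Cd3g* were too low to be tested. Of 5 pan-leukocyte and 4 endothelial markers 0 passed in edgeR, all with estimates below 0. The largest were −0.37 for *Coro1a* and −0.33 for *Tek*, which DESeq2 called lower. Groups did not overlap for these and for *Cd53*, *Laptm5* and *Cdh5*, beside 20.4% of all genes tested. Skeletal muscle markers varied most, with summed levels of 171.5, 557.9 and 3007 CPM in controls 1, 2 and 3 and 3178, 1028 and 8888 in knockouts 1, 2 and 3, and they did not follow the classical chains throughout. Muscle RNA was lowest in controls 1 and 2, where those chains were highest, but next lowest in knockout 2, where they were lowest. Of these 10 muscle genes 0 passed, with a median log2 fold change of 1.83. With a muscle score in the fit, the log2 fold change was −0.14 for *H2-Aa*, −0.04 for *H2-Ab1*, −0.20 for *H2-Eb1* and −0.07 for *Cd74*. The part of B cells in the class II values was not tested. Among 9 tendon markers *Dcn*, the matrix proteoglycan decorin, was the 1 that passed in edgeR, and DESeq2 also called *Comp* higher. *Dcn* fell by 0.45 on the log2 scale (SE 0.06, edgeR adjusted p = 0.0301, 0.0611 with the replicate block), and the call was lost when any library other than knockout 2 was left out (adjusted p between 0.0659 and 0.154).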

How the data were processed

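Injured tendon RNA from 3 *Ampkα1fl/fl* and 3 *LysM-Cre; Ampkα1fl/fl* mice was sequenced at BGI, and groups and replicate numbers were taken from the sample labels. The authors deposited, for 65053 RefSeq transcripts, estimated counts of reads, which are not normalized, and TPM values, scaled by the authors to transcript length and a common total. The genome build in the submitters' processing notes is GRCm38.p6, and the aligner and counter are not given in the sources used here. Deposited columns of 6 FPKM values, 6 normalized counts and 8 averages were not used.

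Estimated counts were summed per NCBI gene (18099 genes, 18049 with a symbol) and rounded. The table lists 1561 rows as copies of another row, in 745 genes, and these were summed too. In R 4.3.3, edgeR 4.0.16 (TMM factors, filterByExpr, quasi-likelihood test, limma 3.58.1) was fitted without a block on 14261 genes with Benjamini-Hochberg adjustment at 0.05, and checked on simulated data. Fold changes are knockout over control. CPM values use TMM-scaled library sizes. Single genes and ratios were also tested by exact permutation of the 6 libraries, two-sided, for genes on log2(CPM + 0.5). Of the mice, the sample titles give the replicate number and the group, with the genotype written out for the knockouts only. The genotype of the controls is the one stated by the study. The p-values measure the spread between these mice.

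Libraries of the same replicate number were taken as a block, although the labels do not say that they belong together. Deviations from the group means correlated at 0.184, 0.118 and 0.31 for numbers 1, 2 and 3. Libraries of different number were not compared, so these values do not show a pairing. A fit with the replicate block is given where it changes a call. Alternatives were DESeq2 1.42.0, RLE and upper-quartile scaling, no filter, at least 10 reads in every library, the block, a muscle score as covariate and leaving out each mouse.

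The members and lists were chosen with earlier results of these data known. Named were all 8 members, *Prkaa1*, *Lyz2*, genes of other lists that passed the test or had one of the 3 largest fold changes, defining genes too low to test, and the 10 genes most like *H2-Aa*, *H2-Ab1*, *H2-Eb1* and *Cd74*. *H2-Ob* in the correlation, and *H2-K1*, *B2m*, *Ptprc*, *Adgre1*, *C1qa*, *C1qb*, *Cd68*, *Mertk*, *Fcgr1*, *Cd80* and *Laptm5*, are named outside this rule. Some genes that this rule would name are not reported here.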

Additional observations from a re-analysis of the deposited data

How the results depend on the processing

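For the 8 class II genes, 97 of 104 alternative values kept direction and stayed above an adjusted p of 0.05, 0 passed it, and 7 changed sign. The sign changes were those of *Ciita*, between −0.077 and 0.33 when single mice were left out (−0.0106 without control 3, −0.077 without knockout 2; 0.47 with the muscle covariate), and of *H2-DMa*, between −0.11 and 0.17 when single mice were left out and −0.0601 with the muscle covariate. The cause was not tested. Leaving out single mice moved *H2-Aa* between −0.44 and −0.12, *H2-Ab1* between −0.45 and −0.10, *H2-Eb1* between −0.43 and −0.14 and *Cd74* between −0.36 and −0.10, with the values nearest 0 without control 1 or knockout 2. It moved *H2-DMb1* between −0.19 (without control 2) and −0.07 (without knockout 3), and *H2-DMb2* between −0.54 (without knockout 2) and −0.13 (without knockout 1), with −0.02 for *H2-DMb2* under the muscle covariate. Over all genes, the 128 calls became 688 with DESeq2, 47 with the replicate block, 73 with the muscle covariate and 8 to 276 when single mice were left out (8 without control 2, 276 without knockout 2). Over the other lists, the 3 calls became 14 with DESeq2, 0 with the replicate block, 1 with the muscle covariate and 0 to 7 when single mice were left out. The block changed no call of a class II gene. With the muscle covariate *Nlrc5* had an adjusted p of 0.0742 and *Dcn* of 0.0917. No scaling moved the median of all genes by over 0.1. Depth limits *H2-DMb2* and *Ciita* most, at 11 to 22 and 45 to 80 reads.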
